A study of Mus musculus with 61 samples.

Results

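The middle horizontal fractions were the 6 tissue slabs from the centre of the mouse brain when it was cut from top to bottom, namely fractions 2 to 4 of the H series and fractions 3 to 5 of the Ho series. The rule that chose them used position and no measured value, and they were set against the other 7 horizontal fractions, out of 13 horizontal arrays and 61 arrays in all. The series measured total RNA of whole brains that had been divided into consecutive slabs along the coronal, horizontal or sagittal axis, with 1 one-colour Agilent array for each slab. All mice were untreated males of the strain C57BL/6J, 8 weeks old, and the labels name no allele or agent. The H and Ho series came from 1 mouse each. Per the study's methods, the brains were perfused with RNAlater and embedded, 200 sections of 5 micron were pooled into each fraction of 1 mm, fractions were numbered from the dorsal surface downwards, and the Ho brain was cut at a slight tilt relative to H. The dorsal side comprised H1, Ho1 and Ho2, and the ventral side H5, H6, Ho6 and Ho7.

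Each slab mixes every region that lies at its depth. A central slab holds the thalamus, much of the hippocampus and cerebellum, the choroid plexus of the ventricles, white matter and a rim of lateral cortex, whereas the top slab is largely neocortex and the bottom slabs hold the hypothalamus and the base of the brain. In thalamic relay neurons the transcription factor Tcf7l2, an effector of Wnt signalling, is kept on in adult life and is a standard mark of the region. The brain surface is covered by meninges, whose fibroblasts secrete matrix proteins and carry solute transporters.

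Values are log2 levels, the log2 of the processed signal minus the log2 of the 75th percentile of the same array, so that 0 is the level of a probe at that percentile. Levels of different genes come from different probes and are not set against each other. Differences were tested with limma's moderated test with the mouse as a block, and a gene was called at an adjusted p (Benjamini-Hochberg over all detected probes) under 0.05. Since the arrays of a series are slabs of 1 brain, these p-values measure the spread between slabs of 2 mice, and in a bulk slab fewer cells of a type and less RNA per cell cannot be told apart.

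The 13 arrays were alike in signal, with 75th percentiles from 737.5 to 1204.6 and 66.3% to 73.0% of probes well above background, both lowest for Ho1. No probe was saturated. The general neuronal markers were well above background on all 13 arrays in 6 of 6 genes tested, of which 1 was lower in the lowest than in the uppermost middle position. None of the 7 reference genes tested was called in any comparison, but 3 of 7 were lower than dorsally when arrays were scaled to their median. A pair of arrays, Ho1 and H2, stood apart by position.

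The topmost Ho slab, Ho1, has no partner in a pairing, by number, of the lower 6 Ho slabs with H1 to H6. When each slab's differences from its own mouse's mean were correlated over 12606 genes, H1 was most alike Ho1 (Pearson r = 0.70) and Ho1 was far less alike H2 (r = 0.15). The middle slab H2 was most alike the dorsal slab Ho2 (r = 0.74) and next alike Ho3 (r = 0.67), whereas H3 paired with Ho4 (r = 0.72) and H4 with Ho5 (r = 0.67). Ho1 and H2 were kept, as the positions require. The counts of genes called against the other fractions and each side are given without them too. The same holds for some of the lists but not for all.

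Against all other horizontal fractions, 85 genes were higher in the middle (0.548% of 15523 genes tested) and 36 were lower (0.232%). Of the higher genes, 3 belonged to the thalamic list and 52 peaked in caudal slabs of a coronally cut brain, and the lower genes held 2 markers of meningeal fibroblasts. Without Ho1 the counts were 63 higher and 22 lower. Scaling each array to its median in place of its 75th percentile gave 49 higher and 114 lower, with the median of all differences moved by -0.06, so the split between directions depends on the scaling. Without H2 the counts were 43 and 7, without H1 36 and 8, and leaving out any 1 array gave from 17 higher and 0 lower (without Ho4) to 265 higher and 364 lower (without Ho2).

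The 3 thalamic genes that passed were Tcf7l2, Rgs16 and Prkcd. Tcf7l2 lay between 0.37 and 0.93 in the 6 middle fractions, with a median of 0.75, and between -1.38 and -0.22 in the other 7, with a median of -0.54. No other fraction reached the lowest middle fraction, H2. The difference was 1.36 ± 0.18 (SE) on the log2 scale, 2.57-fold (limma, adjusted p = 0.00725). The remaining 2 probes of the gene gave differences of 1.48 and 1.44.

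Rgs16, a regulator that shortens G-protein signals, ranged from 0.60 to 1.69 in the middle (median 1.35) and from -1.11 to 0.44 elsewhere (median -0.30), again without overlap. Its difference was 1.57 ± 0.27 (adjusted p = 0.0138). Prkcd, the delta isoform of protein kinase C, was 2.30 in H3, 2.37 in H4, 1.41 in Ho3, 2.32 in Ho4 and 2.21 in Ho5, but -0.15 in H2. The other fractions ranged from -0.48 to 0.73, so that H2 alone lay among them. The difference was 1.78 ± 0.40 (adjusted p = 0.0403), and the second probe gave 1.89.

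The start of each of these 3 genes, called in the same comparison, is shown as RefSeq gives it on GRCm38.p6. Each window runs from 250 bases before to 50 bases after the transcript start. The windows are Tcf7l2 at chr19:55741560-55741859 on the plus strand, Prkcd at chr14:30626159-30626458 on the minus strand and Rgs16 at chr1:153740103-153740402 on the plus strand. Where a gene has several starts the first listed is shown. Sult1c2, at chr17:53845909-53846208 on the minus strand, is another of the higher genes, with a peak in the same coronal zone, and its capitals mark the only match found.
Tcf7l2: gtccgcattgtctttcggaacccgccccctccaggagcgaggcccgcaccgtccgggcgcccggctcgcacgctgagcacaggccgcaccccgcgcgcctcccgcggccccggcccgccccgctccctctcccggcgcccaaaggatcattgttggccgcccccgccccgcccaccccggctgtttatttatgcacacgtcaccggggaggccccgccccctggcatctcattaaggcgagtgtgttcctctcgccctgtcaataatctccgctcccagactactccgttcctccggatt
Prkcd: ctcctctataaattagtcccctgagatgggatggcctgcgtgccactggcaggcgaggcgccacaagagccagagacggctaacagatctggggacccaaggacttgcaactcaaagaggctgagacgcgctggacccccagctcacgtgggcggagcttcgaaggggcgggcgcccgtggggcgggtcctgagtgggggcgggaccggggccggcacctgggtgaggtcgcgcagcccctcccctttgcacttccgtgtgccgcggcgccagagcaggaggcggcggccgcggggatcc
Rgs16: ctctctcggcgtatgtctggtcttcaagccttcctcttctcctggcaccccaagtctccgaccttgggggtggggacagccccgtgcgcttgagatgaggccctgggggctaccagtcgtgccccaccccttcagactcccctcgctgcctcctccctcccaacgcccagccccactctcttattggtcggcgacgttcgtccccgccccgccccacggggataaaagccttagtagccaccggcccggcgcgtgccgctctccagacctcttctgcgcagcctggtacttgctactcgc
Sult1c2: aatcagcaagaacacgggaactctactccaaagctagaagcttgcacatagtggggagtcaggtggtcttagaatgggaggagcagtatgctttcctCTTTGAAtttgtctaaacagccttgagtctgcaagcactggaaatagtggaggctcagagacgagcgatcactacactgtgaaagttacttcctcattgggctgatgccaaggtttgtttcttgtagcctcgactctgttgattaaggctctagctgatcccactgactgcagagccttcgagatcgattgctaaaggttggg

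The windows were searched on both strands for CTTTGAA and CTTTGAT, the core letters bound by the family of factors to which Tcf7l2 belongs. The Tcf7l2, Prkcd and Rgs16 windows held 0 matches, as did those of Wnt9b, Shox2 and Vav3, and Sult1c2 held 1 that begins at position -153 from the start. Of all 32851 promoter windows of this length, 8.65% held a match. No match says only that these letters are not in this window. The windows shown for Tcf7l2, Prkcd and Rgs16 were rich in G and C, at 70%, 69.3% and 66% against a median of 52.7% over all windows. The window of Sult1c2 was not, at 47.7%. Nor were those of the second listed starts of Tcf7l2 and Prkcd, at 42% and 51.3%.

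**Figure D1:**
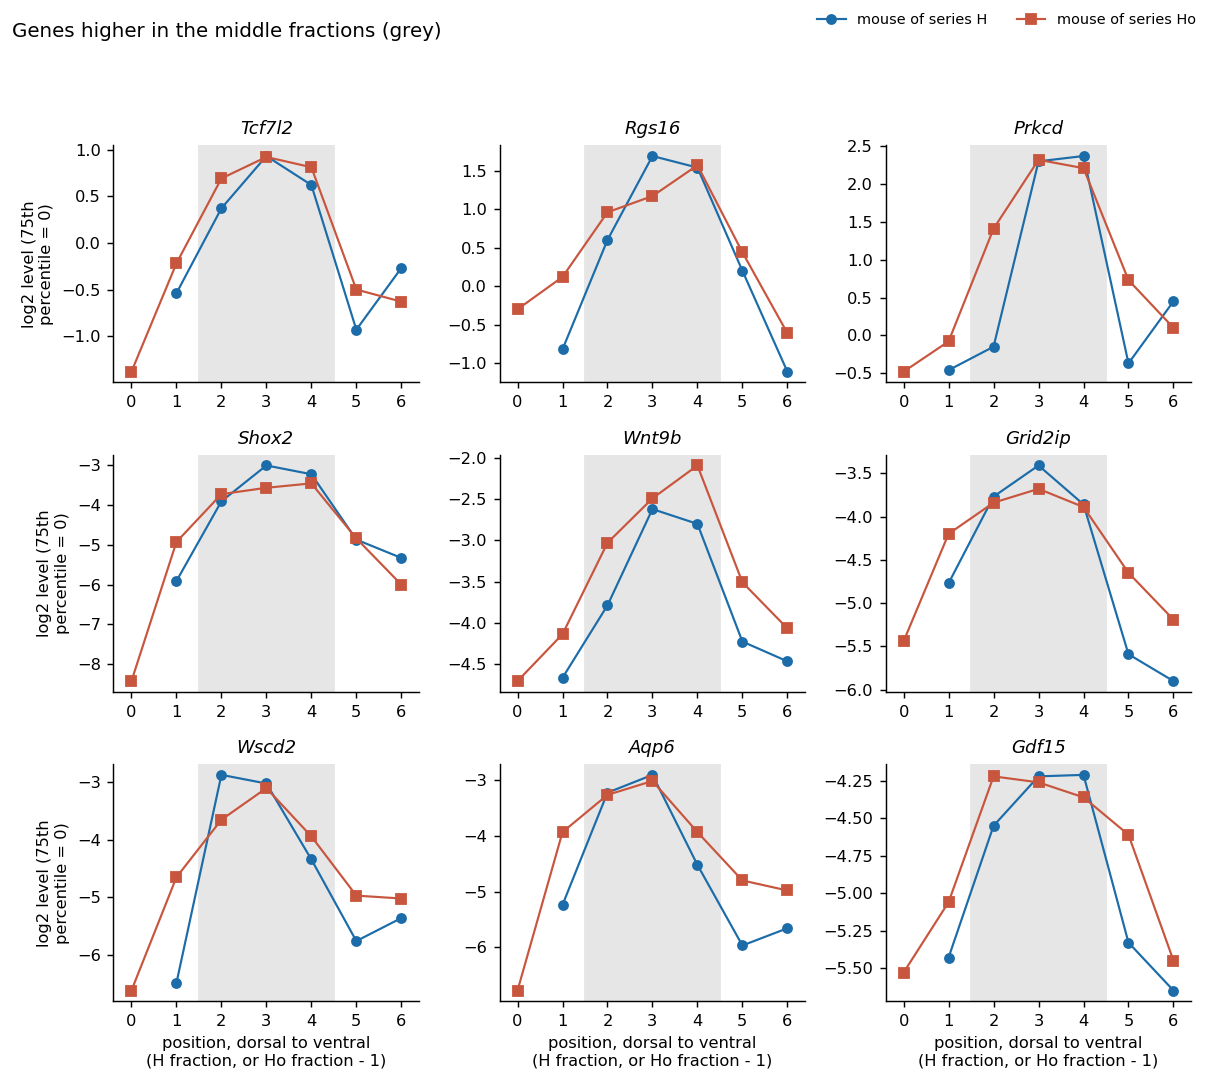
Log2 level (relative to each array's 75th percentile) of 9 genes higher in the middle fractions, by position from dorsal to ventral; blue circles are the H mouse, red squares the Ho mouse placed at its number minus 1, and grey marks the middle. Tcf7l2 stays between 0.37 and 0.93 in the grey band and at -0.22 or below outside it, and Prkcd exceeds 1.4 in every middle fraction but H2.

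Over the list of 10 thalamic genes, 3 were higher than all other fractions, 4 were higher than the dorsal side and 3 were higher than the ventral side, and none was lower. Over all genes the shares higher were 0.548%, 7.88% and 1.35% in the same order. The median difference from the other fractions was 1.27, beside -0.02 over all genes. On the dorsal side the fourth gene was Slitrk6, a synaptic adhesion protein, which was 3.20 ± 0.57 higher in the middle (adjusted p = 0.00881). On the ventral side Ramp3, which modifies calcitonin-type receptors, was 1.62 higher (adjusted p = 0.0165) and joined Tcf7l2 and Rgs16. Gbx2, a homeobox gene of the thalamus, did not pass against any side, with levels of -8.94 in H2 and -1.42 in H4. Without Ho1, 2 of the 10 were higher than the other fractions, 2 than the dorsal side and 4 than the ventral side. Without H2 the 3 counts were 4, 7 and 3, without H1 3, 0 and 3, and with slide, the glass that several arrays share, as a fixed block in place of the mouse 5, 1 and 0.

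Among the remaining genes with the largest rise in the middle, Rasd1, a Ras-like GTPase, ranged from -2.33 to -1.32 in the middle and from -6.01 to -2.04 elsewhere, with only Ho6 within the middle range. Its difference was 2.61 ± 0.57, 6.10-fold (limma, adjusted p = 0.036). Shox2, a homeobox transcription factor, lay between -3.91 and -3.01 in the middle and at -4.84 or below elsewhere. That gap gave a difference of 2.24 ± 0.51 (adjusted p = 0.0415). Wscd2 did not overlap either, from -4.34 to -2.87 against -6.62 to -4.65, a difference of 2.08 ± 0.37 (adjusted p = 0.0148).

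Aqp6, a water channel of the aquaporin family, differed by 1.89 (adjusted p = 0.0391) and overlapped the other fractions. Srrm3, which promotes the splicing of neuronal microexons, differed by 1.89 as well (adjusted p = 0.00823), with no overlap. The sulfotransferase Sult1c2 was 1.86 higher (adjusted p = 0.0344) and was not well above background on any dorsal array, against which it was at least 5.97-fold higher. Fam135b (1.81), the atypical chemokine receptor Ackr4 (1.79), the zinc finger gene Zfp352 (1.60) and the tubulin polyglutamylase Ttll6 (1.53) completed the 12 genes named by size. Zfp352 rests on 1 probe, since its second probe, which was not well above background on any of the 13 arrays, differed by -0.04. The same sign in both mice was a condition for naming these genes, and it bears on the 4 slides too, each of which carried arrays of 1 mouse, so that the shared sign of all 12 within the slides is a description. Of the 12, 6 passed without H2, 4 without H1, 7 without Ho1, 3 without Ho4 and 10 with slide as a fixed block.

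Wnt9b, a secreted Wnt ligand, was 1.49 higher in the middle (adjusted p = 0.0106). Its levels were -3.79, -2.62 and -2.80 in H2 to H4 and -3.03, -2.49 and -2.09 in Ho3 to Ho5, while the other fractions ran from -4.71 to -3.51. Only H2 lay in the range of the others. Grid2ip, or delphilin, binds the delta2 glutamate receptor of Purkinje cells and was 1.38 higher (adjusted p = 0.014), from -3.89 to -3.41 in the middle against -5.90 to -4.20. Gdf15, a secreted factor of the TGF-beta family, was 1.01 ± 0.14 higher (adjusted p = 0.00823). Its 6 middle levels lay between -4.55 and -4.21 and no other fraction exceeded -4.61.

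Because dorsal and ventral neighbours differ from each other, each side was tested on its own, and 30 genes (0.193% of 15527) passed as higher than both. Tcf7l2 was 1.45 above the dorsal side (adjusted p = 0.00753) and 1.30 above the ventral side (adjusted p = 0.0242). Rgs16 was 1.63 and 1.52 above them, Wnt9b 1.79 and 1.27, Wscd2 2.48 and 1.79, Srrm3 1.92 and 1.86, and Ackr4 1.47 and 2.03. Stil, which acts in centriole assembly, was 1.28 and 1.59 above the 2 sides, and it was not well above background on any ventral array, against which it was at least 3.02-fold higher. Grid2ip (1.09 and 1.59), Gdf15 (1.07 and 0.96), Faxc (1.29 and 1.42), Aym1 (1.61 and 0.94) and Zfp352 (1.47 and 1.69) made up the rest of the 12 named. Prkcd missed this class because its ventral test gave 1.52 with an adjusted p of 0.0805. With slide as a fixed block 0 genes were above both sides, and of the 12 named 0 kept the ventral and 3 the dorsal call. Of the 30, 3 stayed in the class without H2, 14 without Ho1, 1 without H5, and 0 without H1, H3, H6, Ho4 or Ho7.

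In all, 94 genes (0.605%) had all 6 middle levels above all 7 others, and 83 (0.535%) had all 6 below. Detection was lower among the higher genes than over all genes: 61 of 85 (71.8%) were well above background on all 13 arrays, against 81.7% of all genes and 34 of 36 (94.4%) of the lower genes. The median difference was 0.72 among the higher genes and -0.79 among the lower ones.

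The 36 lower genes were led by Myoc, Apof and Ogn. Myoc, or myocilin, a secreted glycoprotein, ranged from -0.13 to 0.60 in the middle (median -0.03) and from 0.62 to 2.45 elsewhere (median 1.57). The groups did not overlap, although H2 at 0.60 and Ho6 at 0.62 nearly met. The difference was -1.41 ± 0.28 (limma, adjusted p = 0.0242). Ogn, or osteoglycin, a small leucine-rich proteoglycan of the extracellular matrix, ranged from -0.64 to -0.36 in the middle and from -0.14 to 1.77 elsewhere, a difference of -1.35 (adjusted p = 0.0225). Its highest levels were in the outermost slabs, at 1.44 in H1, 1.77 in H6 and 1.25 in Ho7.

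The organic anion transporter Slc22a6 differed by -1.19 (adjusted p = 0.0445), and the GABA and betaine transporters Slc6a12 and Slc6a13 by -1.15 (adjusted p = 0.0282) and -1.02 (adjusted p = 0.0451). Slc6a13 lay between 1.09 and 1.26 in all middle fractions, where no other fraction lay, and reached 3.22 in H6 and 2.62 in H1. Fmod, the proteoglycan fibromodulin, differed by -1.07 (adjusted p = 0.0344), the adhesion protein Mpzl2 by -1.15 and the transcriptional regulator Prdm6 by -1.31. On the second probe of Mpzl2 the difference was -0.98 and did not pass (limma, adjusted p = 0.0663). Apof, an apolipoprotein, differed by -1.37 and Fam180a by -1.34. Ptgis, which makes prostacyclin, differed by -0.98, as did Cd3d, a chain of the T-cell receptor complex that was well above background on only 3 of the 6 middle arrays. These 12 were again chosen for the same sign in both mice. Of them, 2 passed without H2, 4 without Ho1, 7 with slide as a fixed block, 1 without H4 or Ho7, and 0 without H1, H3 or Ho4.

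**Figure D2:**
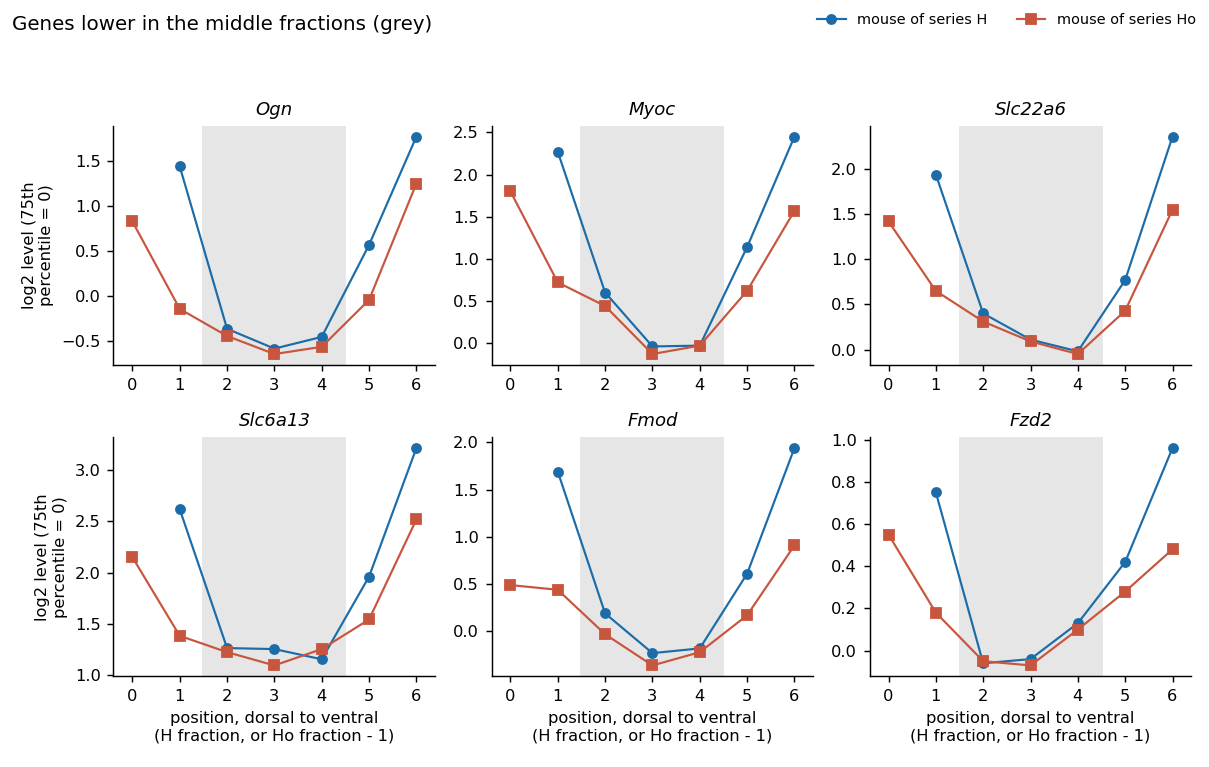
Log2 level of 6 genes lower in the middle fractions, by position from dorsal to ventral, with symbols as in the plot of the higher genes. Levels form a trough, with Slc6a13 between 1.09 and 1.26 in the grey band and 3.22 in the lowest H slab.

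Lower than both sides were 5 genes (0.0322%), Ogn, Mybpc2, Stbd1, Fzd2 and Ydjc. Fzd2, a Frizzled receptor for Wnt ligands, lay between -0.07 and 0.13 in the middle and between 0.18 and 0.96 elsewhere. It differed by -0.52 from the dorsal side (adjusted p = 0.0306) and by -0.53 from the ventral side (adjusted p = 0.0447). Mybpc2, a myosin-binding protein, differed by -0.78 and -0.97, the starch-binding protein Stbd1 by -0.84 and -0.59, and Ydjc by -0.35 and -0.40. None of the 5 stayed in this class without H1, H2, H3, H5, H6, Ho4 or Ho7 or with slide as a fixed block, and 1 did without Ho1, Ho3 or Ho5.

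Of 10 markers of meningeal fibroblasts, Ogn and Slc6a13, both already among the 36, were lower in the middle and 8 did not pass. Over all genes 0.232% were lower, with a median difference of -0.02. With slide as a fixed block Slc6a13 did not pass (limma, adjusted p = 0.0732). The median difference over the 10 was -0.84 and none was positive, and 1 passed without Ho1 and 0 without H1 or without H2. All 10 were well above background on all 13 arrays. Their summed linear level, with each array's 75th percentile set to 1, was 21.7 to 26.3 in the middle, 25.2 to 55.2 on the dorsal side and 27.6 to 66.8 on the ventral side. Red blood cell genes summed to 6.59 to 10.5, 10.0 to 18.4 and 11.4 to 26.9 in the same order, with 0 of 3 called. The part of surface tissue in the lower genes was not tested.

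In the main fit the dorsal side differed most from the middle, with 1223 genes higher in the middle (7.88%) and 990 lower (6.38%). That order turned without Ho1, with 2268 probes called against the dorsal and 2660 against the ventral side. It also turned without H1, with 186 and 1062. Against the dorsal side, 24 genes were higher and 3 lower without H1, and 429 and 243 without Ho1. The counts were 1491 and 1159 without H2, and 1800 and 2268 without Ho2. Under median scaling 891 were higher and 3509 lower, with the median of all differences moved by -0.13. The balance of directions therefore turned with the scaling, while each list described next kept its direction under both: under median scaling 10 choroid plexus, 3 ependymal, 11 myelin and 7 striatal genes were higher and 6 upper-layer and 9 immediate early genes lower. Ventricular, myelin and striatal genes were higher than at the top of the brain, and upper cortical and activity-regulated genes were lower. These calls depend on H1. Without it 0 genes of the 6 lists passed, while the median differences were 2.91 for choroid plexus, 1.42 for ependyma, 1.17 for myelin, 1.43 for striatum, -1.01 for upper layers and -0.98 for immediate early genes. Without H2, 10 of 11 choroid plexus, 5 of 5 ependymal, 11 of 11 myelin, 8 of 10 striatal, 5 of 7 upper-layer and 9 of 9 immediate early genes passed, and with slide as a fixed block 7, 0, 7, 1, 2 and 4 did.

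Choroid plexus genes differed strongly. Of 11 tested, 9 were higher in the middle than dorsally, with a median difference of 2.79, and 9 remained without Ho1. Ttr, or transthyretin, the thyroid hormone carrier that this epithelium secretes, was at -5.63 in H1, -2.17 in Ho1 and -2.88 in Ho2. It stood at -1.43, 1.23 and 1.74 in H2 to H4 and at 0.69, 1.44 and 1.04 in Ho3 to Ho5, so the groups did not overlap. The difference was 4.55 ± 0.68, 23.4-fold (limma, adjusted p = 0.00541). The potassium channel subunit Kcne2 (4.97), coagulation factor F5 (3.84), the folate receptor Folr1 (3.08), the chloride channel protein Clic6 (2.93), Sostdc1 (2.79), klotho (Kl, 2.62) and the water channel Aqp1 (2.36) followed.

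H2 was the lowest middle fraction for Ttr, and it lay closer to the dorsal slabs than H3 and H4 did. Against the ventral side none of the 11 choroid plexus genes passed, and the median difference was 0.63. Their summed level was 2.83 to 18.3 in the middle, 1.15 to 1.58 dorsally and 5.41 to 8.83 ventrally. Ependymal genes, of the ciliated ventricular lining, followed with 3 of 5 higher than dorsally: Foxj1, the regulator of motile cilia, by 1.84 (adjusted p = 0.0118), the cilia protein Hydin by 1.61 and the dynein light chain Dynlrb2 by 1.53. Without Ho1, 2 of the 5 passed.

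All 11 myelin genes were higher than dorsally, with a median difference of 1.39, and 10 of 11 without Ho1. Mog, a glycoprotein of the myelin sheath, was -2.21 in H1, -1.81 in Ho1 and -0.76 in Ho2, and between -0.42 and 0.52 in the middle, so that the groups did not overlap. The difference was 1.75 (adjusted p = 0.00655), and Mag, another myelin glycoprotein, rose by 1.53. Mbp, myelin basic protein, rose by 0.83 on its brightest probe (adjusted p = 0.0119), whereas another probe of the same gene differed by -0.81 (adjusted p = 0.00939). None of the 11 differed from the ventral side, where the median difference was -0.17.

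Of 10 striatal genes of medium spiny neurons, 6 were higher than dorsally and all 10 differences were positive, with a median of 1.40. Drd2, the D2 dopamine receptor, was 3.13 higher (adjusted p = 0.0102), Drd1 2.08, the signalling regulator Rgs9 2.01, the phosphodiesterase Pde10a 1.43, proenkephalin (Penk) 1.38 and the tachykinin precursor Tac1 1.31. Without Ho1, 1 of the 10 passed, as was the case without H3, Ho4 or Ho5. On the ventral side the order turned, and all 10 differences were negative. Of the 10, Tac1 alone passed there, differing by -1.45 (adjusted p = 0.0388). Tac1 was thus 1 of 27 genes (0.174%) that lay above the dorsal and below the ventral side, while 22 genes (0.142%) lay below the dorsal and above the ventral side.

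Upper-layer cortical genes went the other way, with 5 of 7 lower in the middle than dorsally, or 4 of 7 without Ho1. Lamp5 differed by -1.32, the transcription factor Cux2 by -1.16, Rasgrf2 by -1.07, the nuclear receptor Rorb by -0.78 and the Wnt enhancer Rspo1 by -1.93 (adjusted p = 0.0101). Immediate early genes, which neurons switch on with activity, were lower in 8 of 9, or 6 of 9 without Ho1. Arc was 6.74 in H1, 7.03 in Ho1 and 6.28 in Ho2, and between 4.68 and 6.11 in the middle, a difference of -1.41 (adjusted p = 0.0125). The transcription factors Egr2 (-1.61), Junb (-1.16), Egr1 (-1.05) and Fosb (-0.96) followed.

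In the main fit the ventral side differed in fewer genes, with 209 higher in the middle (1.35%) and 271 lower (1.75%). These counts depend on single arrays. They were 517 and 524 without Ho1, 14 and 25 without H2, 2 and 7 without H3, 4 and 14 without H5, 1 and 6 without H6, 31 and 56 without Ho3, 1 and 7 without Ho4 and 0 and 9 without Ho7. Under median scaling they were 132 and 302, and with slide as a fixed block 0 and 1. Of 15 hypothalamic genes 8 were lower than on the ventral side, with a median difference of -2.72. The count was 9 without Ho1, 2 without H2, H3, H6, Ho4 or Ho7, and 1, Oxt (adjusted p = 0.0118), with slide as a fixed block. Avp, the vasopressin precursor, ranged from -5.17 to -1.96 in the middle and was 2.75 in H5, 5.49 in H6, 3.04 in Ho6 and 4.47 in Ho7. That gap was -7.85 (limma, adjusted p = 0.00407), and Oxt, which encodes oxytocin, differed by -6.69 (adjusted p = 0.000577).

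The orexin precursor Hcrt differed by -5.43 (adjusted p = 0.0463), although Ho5 at 2.63 lay among the ventral slabs. The feeding peptide gene Agrp differed by -3.57, Ghrh, which encodes the growth hormone releasing hormone, by -3.05, and the melanocortin precursor Pomc by -2.17. The developmental regulators Nkx2-1 and Six6 differed by -3.28 and -1.84. Six6 was not well above background on any middle array and was at least 2.65-fold lower. On the dorsal side 2 of the 15 were higher in the middle, Trh, the thyrotropin releasing hormone gene, by 3.52 (adjusted p = 0.0364), and Six3, by at least 7.97-fold (adjusted p = 0.00843).

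Cerebellar genes had high medians in the middle but no call. The 7 granule cell genes had a median of 1.5 against all other fractions, all 7 were positive, and 0 were called against the other fractions or either side. For Gabra6, the granule cell GABA receptor subunit, levels were 2.39, 2.30 and 0.59 in H2 to H4 and 2.43, 2.12 and 1.09 in Ho3 to Ho5. The others ran from -2.13 in Ho1 to 1.94 in Ho2, so Ho2 lay above the lowest middle fractions. The difference was 1.95 ± 0.63 (adjusted p = 0.133). The 8 Purkinje cell genes had a median of 0.99 and 0 calls. Without Ho1, 6 of 7 granule cell genes and 6 of 8 Purkinje cell genes were higher in the middle than on the ventral side. Over all genes 517 of 15527 were higher in that fit. Against the dorsal side 0 genes of either list passed without Ho1. Their median differences from that side were 0.56 and -0.11, against 1.73 and 0.68 with Ho1 kept.

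**Figure D3:**
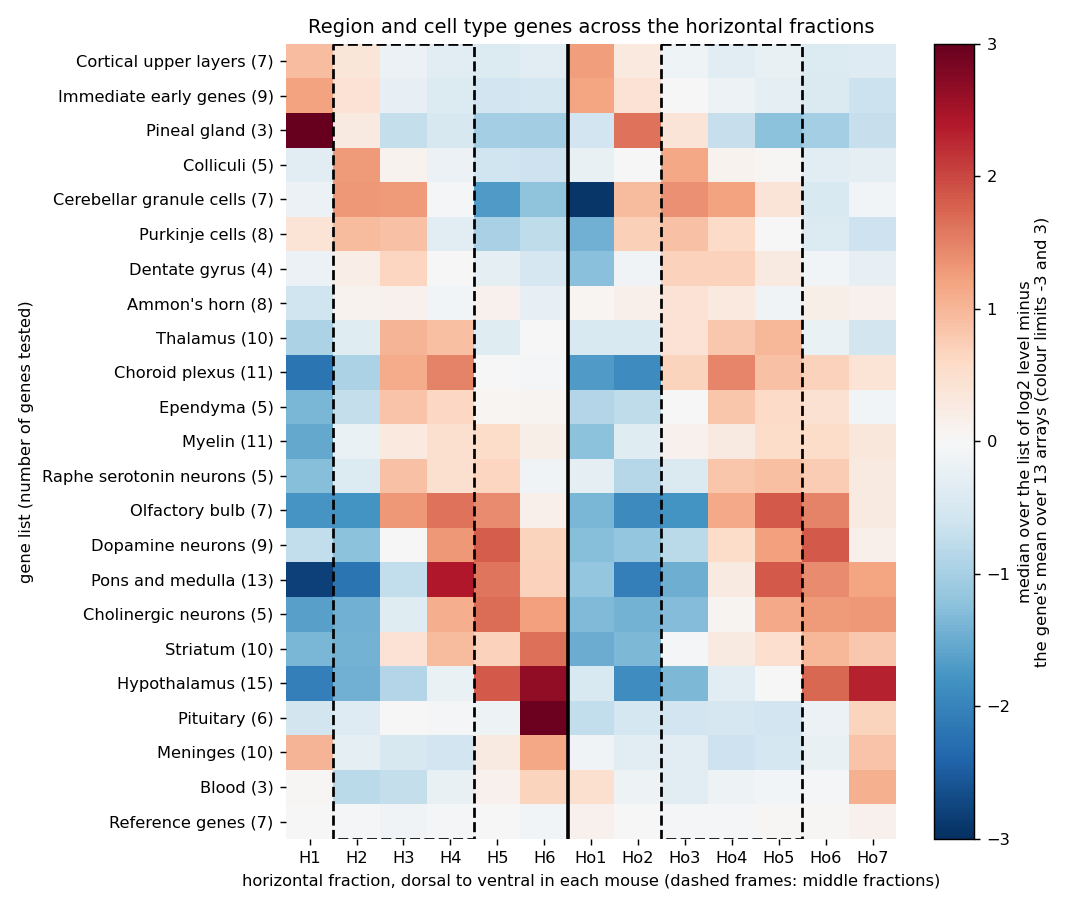
Heat map of 23 gene lists (rows) across the 13 horizontal arrays (columns), coloured by the median over the list of each gene's log2 level minus its mean over the 13 arrays, on a scale from -3 to 3, with dashed frames around the middle fractions. Thalamus, for example, is 1.02 in H3 and 0.82 in Ho4 but -0.37 in H2 and -0.96 in H1, and the granule cell list is 1.29 in H2 and -1.69 in H5.

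Of 4 dentate gyrus genes tested, Prox1, the transcription factor of granule neurons, was higher than all other fractions by 0.72 (adjusted p = 0.0491) and than the dorsal side by 1.08. It did not pass against all others without H1 (adjusted p = 0.0971) or without H2 (adjusted p = 0.0778). Of 8 Ammon's horn genes none passed against all others and 1, Cabp7, was 1.13 higher than dorsally. The median differences from all others were 0.81 for the dentate and 0.50 for the Ammon's horn list, and the lists were not tested against each other. On the ventral side Neurod6 was 1.47 higher, Bok 0.44 higher and Wfs1 differed by -0.73. None of the 9 astrocyte, 7 microglia or 8 endothelial genes tested was called against all other fractions, with medians of -0.24, -0.44 and -0.12.

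The middle slabs also differed from each other. The mice were paired by fraction number, less 1 in Ho. The 3 middle positions were thus H2 with Ho3, H3 with Ho4 and H4 with Ho5. By its profile H2 was more alike Ho2 (r = 0.74) than Ho3 (r = 0.67), and no other pairing was fitted for these positions. An F test over the positions called 116 genes (0.748% of 15514). By the sign of the lowest minus the uppermost level alone, 106 of these rose and 10 fell. This also sorts genes that were highest at the centre, such as Gpr151. The contrast of the lowest with the uppermost position alone called 325 higher (2.09%) and 121 lower (0.78%). Each position had 1 slab per mouse, and the spread was estimated from 12 arrays, since Ho1 had no partner. With slide as a fixed block the F test called 1 gene, Slc6a2 (adjusted p = 0.0261), so that no other gene named here for its F test passed. The F test called 31 genes without H2, 30 without H5 or Ho6 and 23 without Ho5, of which 24, 30, 30 and 21 were among the 116.

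Hox genes, which pattern the hindbrain and spinal cord, gave large steps. Hoxb5 was -9.08 in H2 and -8.90 in Ho3, -6.24 in H3 and -3.01 in Ho4, and 0.46 in H4 and -0.18 in Ho5. It was not well above background in the uppermost position and was at least 432-fold higher in the lowest (limma's F test, adjusted p = 0.0301). Hoxb2 was at least 142-fold and Hoxb7 at least 99.4-fold higher, and Hoxb6 differed by 6.89 on the log2 scale. Of 13 genes of the pons and medulla, 8 were higher in the lowest than in the uppermost middle position, with a median difference of 4.10. Of the 13, 4 passed the F test. Over all genes the shares were 2.09% and 0.748%. Without H2, 0 of the 13 passed either test.

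Transporters of the monoamine neurons gave steps of like size. Slc6a3, the dopamine transporter, was -5.04 in H2 and -4.10 in Ho3, -2.01 and -0.45 in the centre, and 2.65 and 2.43 in the lowest position, a difference of 7.11 ± 0.78 (F test adjusted p = 0.0438). Slc6a4, the serotonin transporter, had its step higher up, from -8.52 and -8.66 to -1.39 and -1.17 in the centre and -2.16 and -1.88 below. It was at least 88.9-fold higher in the lowest than in the uppermost position (F test adjusted p = 0.000487). Slc6a2, the noradrenaline transporter, was at least 101-fold higher. Foxa2, a transcription factor of dopamine neurons, was at least 102-fold higher.

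Slc18a2, which loads monoamines into vesicles, rose by 4.02 and Tph2, the serotonin synthesis enzyme of neurons, by 2.76. Of 9 dopamine neuron genes, 5 were higher in the lowest position and 3 passed the F test, against 2.09% and 0.748% of all genes. Of 5 raphe serotonin genes, 2 did so in both. In the 5 cholinergic genes, 4 were higher and 3 passed the F test. The choline transporter Slc5a7 rose by 3.92, the vesicular acetylcholine transporter Slc18a3 by 2.48 and the homeobox gene Gbx1 by 1.57. Across the alternative settings Slc5a7 lost its call in 12 of 23, Slc18a3 in 2 of 23 and Gbx1 in 1 of 23.

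Olfactory bulb genes rose in 6 of 7, against 2.09% of all genes, and 4 of these passed the F test, against 0.748%. Tbx21, a transcription factor of the bulb's output neurons, was -4.20 in H2 and -4.56 in Ho3, -0.94 and -1.0 in the centre, and -0.14 and -0.26 in the lowest position. The mice lay close together at each step. Its difference was 4.18 (F test adjusted p = 0.000243). S100a5 rose by 5.49 (F test adjusted p = 0.0253), Doc2g by 3.88 and the transcription factor Sp8 by 3.47. Across the alternative settings S100a5 lost its call in 12 of 22, Tbx21 in 1 of 23, Doc2g in 1 of 24 and Sp8 in 2 of 23. Of 10 neuroblast genes, which share Sp8 with the bulb list, 6 were higher in the lowest position: among them doublecortin (Dcx) rose by 1.54 and the homeobox genes Dlx1 and Dlx2 by 1.64 and 1.95.

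Of 15 hypothalamic genes, 4 were higher in the lowest than in the uppermost middle position, and 0 were without H2. Over all genes the share higher was 2.09%. Pmch, the melanin-concentrating hormone precursor, rose by 5.56 (F test adjusted p = 0.016), galanin (Gal) by 2.43 (adjusted p = 0.0245) and Nkx2-1 by 3.21, at least 7.04-fold. In the 10 genes that fell, the named ones differed by less: Teddm3 by -1.68, the muscle myosin gene Myh1 by -1.60, Ccdc63 by -1.11, Igfbp4, which binds insulin-like growth factors, by -1.05, the serine protease gene Tmprss3 by -0.99, the diacylglycerol kinase gene Dgkz by -0.85, the kinase gene Sbk1 by -0.78 and Rims1, of the presynaptic active zone, by -0.76. On the second probe of Myh1, well above background on 7 arrays, the difference was -0.56. It did not pass in the contrast of the lowest with the uppermost position (limma, adjusted p = 0.59). For Dgkz the levels were 3.54 and 3.53 in the uppermost position and 2.59 and 2.77 in the lowest.

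Gpr151 was high at the centre of the middle in both mice. This orphan receptor of habenular neurons was -2.91 in H3 and -2.63 in Ho4 and between -6.47 and -5.14 in the other 11 horizontal slabs. The F test over the middle positions gave an adjusted p of 0.038, and it was the only one of 5 habenular genes to pass, which it did not without H2.

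**Figure D4:**
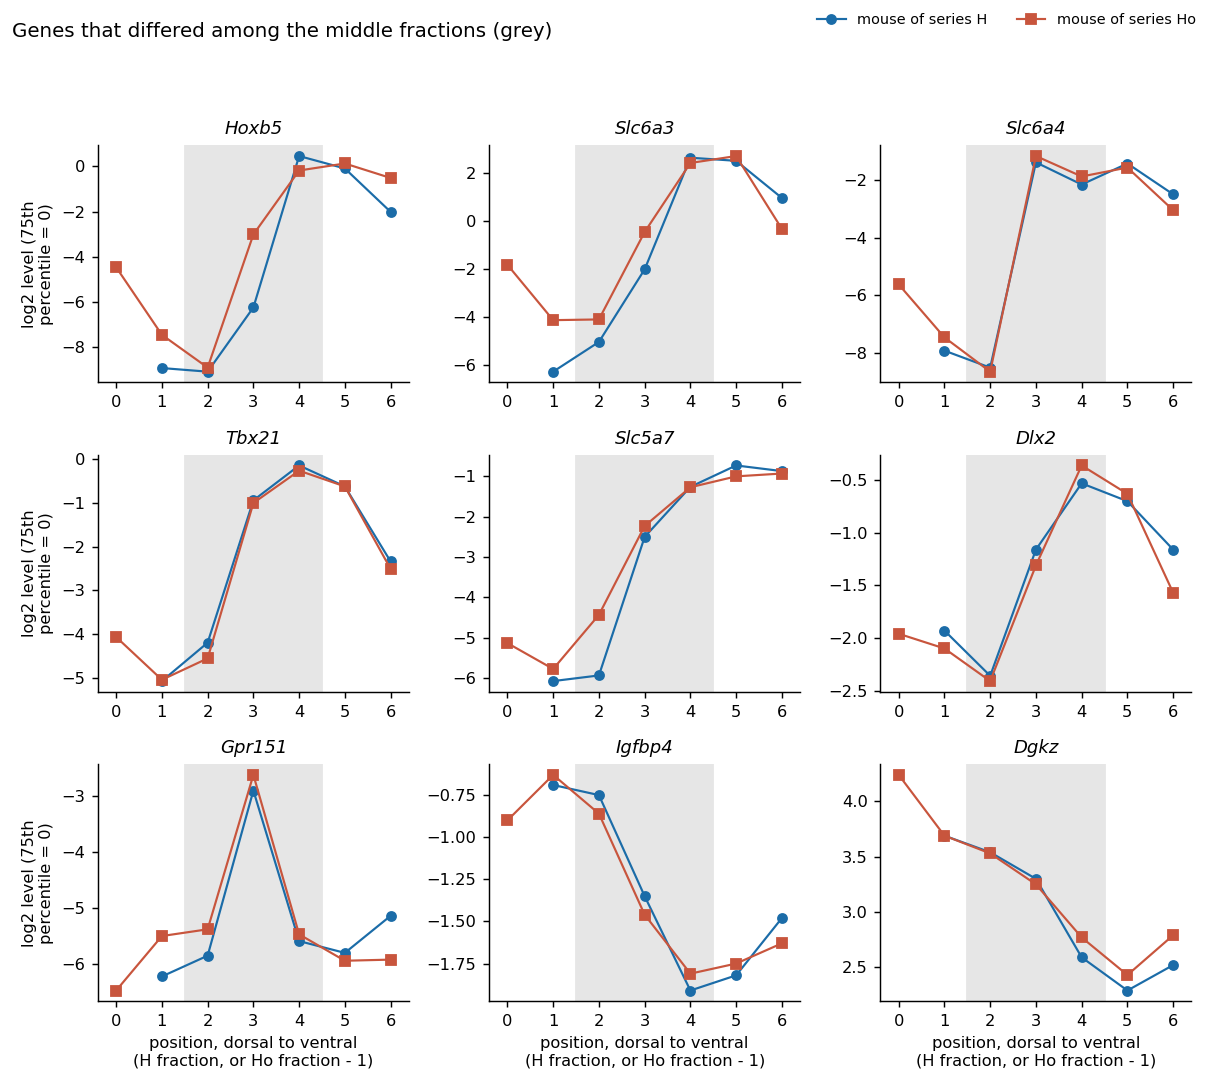
Log2 level of 9 genes that differed among the middle fractions, by position from dorsal to ventral, with symbols as in the plot of the higher genes. Tbx21 climbs from -4.20 and -4.56 to -0.14 and -0.26 across the grey band in both mice, Gpr151 rises only at its centre, and Dgkz declines.

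The coronal series, cut from the caudal to the rostral end in other mice, gave a readout of the same genes that the choice of slabs had not used. The fraction in which each gene was highest was recorded, and the zones below were set after these values were seen, so no test was made. Of the 85 genes higher in the middle, 52 (61.2%) were highest in coronal fractions C2 to C4, against 20.0% of all genes, and 53 (62.4%) in Co3 to Co5, against 19.6%. All 7 granule cell genes and all 8 Purkinje cell genes were highest in C2 to C4. So were 9 of 11 choroid plexus genes and 5 of 13 genes of the pons and medulla, so the zone is not the cerebellum's alone. In Co3 to Co5 lay 7 of 7 granule cell, 7 of 8 Purkinje cell, 10 of 11 choroid plexus and 3 of 13 pons and medulla genes. Fraction Co5 alone held 36 of the 85 (42.4%, against 7.59% of all). Wscd2, Srrm3, Grid2ip, Gdf15 and Stil were highest in both of these zones.

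A smaller group shared the position of the thalamus. In both C7 to C8 and Co8 to Co10 lay 8 of the 85 (9.41%, against 2.04% of all genes), Tcf7l2, Rgs16, Prkcd, Wnt9b, Shox2, Sult1c2, Vav3 (named after its values were seen) and 1 gene with only a clone name, as did 8 of the 10 thalamic genes. Of the 36 lower genes, 20 (55.6%, against 14.5% of all genes) were highest in the last fraction of the Co series, Co16, and 6 (16.7%, against 20.2%) in the first. In the C series 13 (36.1%, against 16.2%) were highest in the first fraction, C1, and 4 (11.1%, against 23.5%) in the last. Of the 106 genes that rose down the middle, 104 (98.1%) were highest in sagittal fractions S5 to S8 and 101 (95.3%) in So5 to So8, against 38.3% and 29.7% of all genes.

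**Figure D5:**
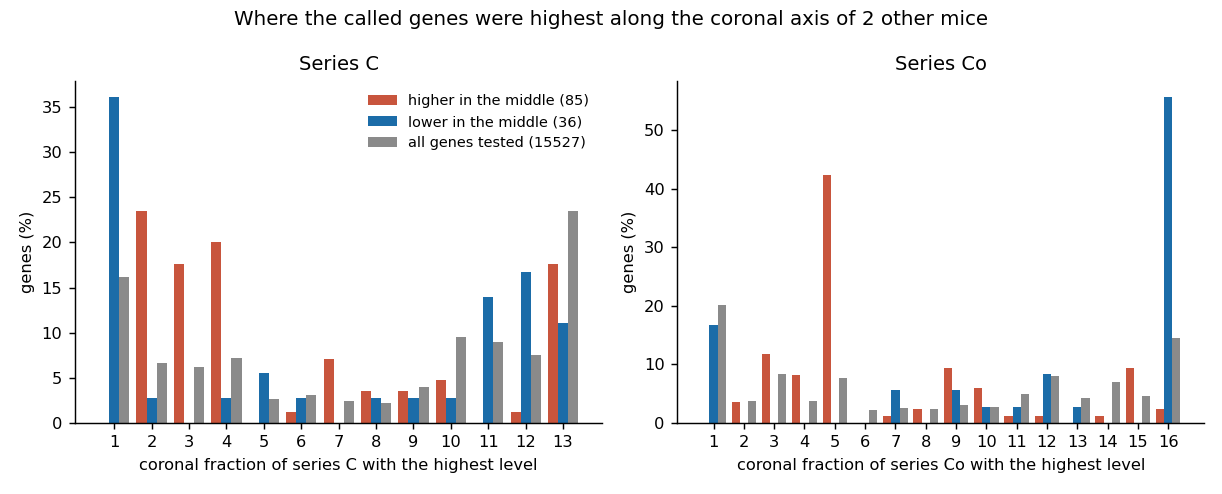
Percent of genes whose highest level fell in each coronal fraction of the C and Co series, numbered from caudal to rostral, for the 85 genes higher in the middle, the 36 lower and all 15527 genes. The higher genes gather in C2 to C4 (61.2%) and at Co5 (42.4%), and the lower genes stand above all genes at C1 (36.1% against 16.2%) and Co16 (55.6% against 14.5%).

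Most of the signal at the level of probes lay outside named genes. Of 36569 probes tested, 868 were higher in the middle (2.37%) and 68 lower (0.186%), 92.7% higher, or 80.0% under median scaling. Of the 868, 745 (85.8%) had no RefSeq gene name here, against 40.4% of probes tested. Among unnamed probes 5.05% were higher, and among named probes 0.564%. The share was 10.8% for unnamed probes well above background on some but not all of the 13 arrays, and 3.51% for those well above it on all 13.

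The 2 mice were also fitted alone. In H alone 0 probes passed for the middle against the other fractions with limma's adjusted p, and 4492 had an unadjusted p under 0.05. In Ho alone 0 passed and 2094 had an unadjusted p under 0.05. Of the 4492 from H, 94.0% had the same sign in Ho, against 71.5% of all probes, and 25.4% also had an unadjusted p under 0.05 there, against 5.28%. Of the 2094 from Ho, 92.2% had the same sign in H and 54.4% an unadjusted p under 0.05, against 11.6% of all probes. A test of whether the middle differed from the rest to a different extent in the 2 mice called 0 probes, with 399 at an unadjusted p under 0.05. Its spread includes the differences between depths within each group, so the absence of calls does not show that the mice agree.

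The 4 slides divided the arrays unevenly, with H1 and H2 on 1 slide, H3 to H6 on another, Ho1 to Ho4 on the third and Ho5 to Ho7 on the last. With slide as a fixed block in place of the mouse, Tcf7l2 gave an adjusted p of 0.0551 against the dorsal side and 0.217 against the ventral side. Against all other fractions limma's adjusted p was 0.0173 for Tcf7l2, 0.0205 for Rgs16, 0.0192 for Prkcd, 0.0321 for Myoc and 0.0423 for Ogn. It exceeded the threshold for Aqp6 (0.0601), Ttll6 (0.0714), Apof (0.0659), Slc22a6 (0.0605), Mpzl2 (0.0563), Slc6a13 (0.0732) and Ptgis (0.0659). Each slide held middle fractions and fractions of 1 side only.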

How the data were processed

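The 13 horizontal arrays and, for the coronal and sagittal profiles, the other 48 of 61 arrays were used. The authors scanned one-colour arrays and extracted spots with Agilent Feature Extraction (9.1.3.1 in the file headers), and the deposited values used here are processed signal intensity per spot. They also deposited a table of per-chip normalized ratios made in GeneSpring GX (36558 probes), which served as an alternative, with all 61 columns matched to samples.

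Spots were averaged per probe (43379 spots, 41174 probes), outlier spots were left out (280 probe values missing on the 13 arrays), and log2 intensity was taken minus the log2 of each array's 75th percentile. The 36573 probes well above background on at least 1 of the 61 arrays were tested. RefSeq accessions named 21809 of them, and each of 15527 genes was read by its probe with the highest mean. The difference of middle from other, dorsal or ventral fractions, and the 3 middle positions, were fitted with limma 3.58.1 in R 4.3.3 (lmFit and eBayes) with the series, which is also the mouse, as a block, on 10 residual degrees of freedom for the middle against all others and 5 for the positions. P-values were adjusted by Benjamini-Hochberg over all probes. Scripts used Python 3.11.15, numpy 2.4.6, pandas 2.3.3, scipy 1.17.1 and matplotlib 3.10.9, and were tested on simulated data. Precision is limited by how few arrays there were.

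The members and the 34 gene lists (274 genes, 254 tested) were chosen with earlier results of these data known. Named genes were those of the lists, the 12 called genes with the largest difference in each direction and the same sign in both mice, the 12 above or below both sides, and the 8 with the largest difference among the middle positions in each direction, all well above background on at least 6 of the 13 arrays. Genes without a symbol were counted only. Alternatives were median scaling, normexp background correction (offset 50) with quantile normalization, the authors' table, other filters on dim probes, no mouse block, slide as a block, pairing by fraction number, each mouse alone, an adjusted p of 0.01 and leaving out each array. The coronal shares under these alternatives were added after seeing the data.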

Additional observations from a re-analysis of the deposited data

Results flagged for a closer look

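Within a group of slabs, a gene was singled out when its highest or lowest slab was separated from the nearest other slab by a large part of the group's whole range. Of 228 groups over 114 named genes 13 met this rule. Independent normal values would meet it in about 1 in 20 groups. These slabs lie at different depths and the genes were chosen for their differences, so that rate does not apply and the flags are a description.

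In 7 genes H2 was the lowest of the 6 middle slabs. The gap was 0.671 of the range for Ttr (level -1.43, nearest 0.69), 0.732 for F5, 0.720 for Folr1 and 0.643 for Kl, all choroid plexus genes. It was 0.693 for the ependymal gene Hydin, 0.696 for Mbp and 0.639 for the striatal gene Rgs9 (level -1.94, nearest 0.14).

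The remaining flags were in the ventral slabs. H6 stood above the others in Tac1 (0.945 of the range, level 3.87, nearest 2.76), Junb (0.873) and Oxt (0.927), and H5 in Slc18a3 (0.873). Ho6 stood below the others in Mybpc2 (0.870, level -4.06, nearest -3.63), and Ho7 in Gal (0.888).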

How the results depend on the processing

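The middle against all other fractions gave 936 called probes. It gave 405 with normexp and quantile normalization, 368 among probes well above background on all 13 arrays, 151 at an adjusted p of 0.01, and 0 in H alone, in Ho alone and with the fractions of the same number taken as the middle of both mice (7577 at an unadjusted p under 0.05). Leaving out 1 array gave 351 to 1886 (without H1 609, H2 469, H3 361, Ho4 351, H6 492, Ho2 1886 and Ho6 1417). The dorsal side gave 5501 probes. It gave 9495 under median scaling (29.8% higher), 9536 with the authors' table (29.7% higher), 846 with slide as a fixed block, 956 at an adjusted p of 0.01, 2268 without Ho1, 209 in H alone and 0 in Ho alone. Leaving out 1 array gave 186 to 9072 (without H1 186, Ho1 2268, Ho2 9072, H3 3455, Ho4 3228 and Ho5 3383). The ventral side gave 1387 probes. It gave 2660 without Ho1, 2772 with equal fraction numbers, 19 at an adjusted p of 0.01, 6 with slide as a fixed block, 1 in H alone and 0 in Ho alone. Leaving out 1 array gave 24 to 2660 (without H2 133, H3 33, H4 2321, Ho3 433, Ho4 34, H5 99, H6 24, Ho7 28 and Ho1 2660). The F test among the middle positions gave 186 probes, and gave 612 with normexp, 534 among probes well above background on all 13 arrays, 31 at an adjusted p of 0.01 and 3 with slide as a fixed block. Leaving out 1 array gave 37 to 218 (without H2 56, H3 111, Ho3 99, Ho4 122, Ho5 37, H5 or Ho6 41, and H6 or Ho7 105). The share of higher genes that were highest in C2 to C4 was 61.2%, 49.3% with slide as a fixed block, and 41.0% to 75.9% when 1 array was left out (without H2 46.5%, H4 75%, Ho3 47.9%, Ho5 75.9%, H5 41.0% and Ho6 44.4%). The cause of these changes was not tested, except that fewer arrays or probes entered some of them. Without the replicate block, which is the pairing of arrays by mouse, the 4 comparisons gave 988, 4744, 1366 and 179 probes.

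Of 3783 alternatives over 145 gene results, 2416 kept the direction and the call, 1364 kept the direction and lost the call, and 3 reversed: Zfp352 on another of its probes against the other fractions (-0.04) and the dorsal side (-0.11), and Mbp on another of its probes against the dorsal side (-0.81). All 145 kept their call with slide as a random block and 44 with slide as a fixed block. Leaving out H1 kept 50, and leaving out H2 kept 78. Without Ho1, 79 of 114 kept it. That fit entered the 3783 both on its own and among the arrays left out, so the alternatives overlap. Signal over background limits the dim genes, of which those well above background on under 13 arrays carry part of their difference from levels near background.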
